A study of Mus musculus with 12 samples.

Results

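The Klr genes encode lectin-like receptors first described on natural killer (NK) cells. The genes described here were the 9 of them named *Klrk1*, *Klrc1*, *Klrc2*, *Klrd1*, *Klrg1*, *Klre1*, *Klrb1c*, *Klra6* and *Klra7*, out of 18992 genes listed in all. They were listed by name, with earlier results of these data known. They were read by single-cell RNA sequencing in NZB/W F1 mice, offspring of an NZB by NZW cross that get lupus nephritis as they age. Every group was PD-1+CD44+CD8+ T cells taken by sorting, either before disease from the spleen of mice aged 12 weeks (12W spleen) or at advanced disease from the spleen (28W spleen) or kidney (28W kidney) of mice aged 28 weeks. No group carried a transgene or a treatment, and the study describes its NZB/W F1 mice as female. Each group had 4 labelled samples, whose titles differ only in a suffix of the form used for sequencing lanes, so they may be runs of 1 library and not separate samples. The tables pool them, so each group was 1 library without a replicate, and no test between libraries was possible. For 28W spleen the labelled age (12 weeks) contradicts the sample titles, and the titles were followed. The number of mice behind a library was not given in the sources used here. Collagenase digestion is described for kidney but not for spleen.

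The libraries held 6894 cells in 10 clusters (12W spleen), 6481 cells in 11 clusters (28W spleen) and 7135 cells in 12 clusters (28W kidney), with 34742303, 32023473 and 29937384 unique molecular identifiers (UMIs, each the tag of 1 captured transcript). The authors clustered each library on its own, with these genes among others, giving 33 clusters, so a cluster number means nothing outside its library and a cluster set against its own library is a description. Levels are given as UMIs per 1000000 UMIs (CPM) with exact 95% Poisson intervals, which cover counting error only. The T cell markers *Cd3e* and *Cd8a* were present in all 3 libraries (1107 and 591 CPM in 12W spleen, 1047 and 488 CPM in 28W spleen, 1306 and 738 CPM in 28W kidney). Markers of other cells were concentrated in cluster 3 of 12W spleen, clusters 8 and 10 of 28W spleen and clusters 7, 8 and 12 of 28W kidney, by a rule of 3 times the library level and 100 CPM for the summed B cell, myeloid or kidney tubule genes. Libraries shared 52 cell barcodes between the spleens, 66 between 28W spleen and 28W kidney and 56 between 12W spleen and 28W kidney. In pooled sums, fewer expressing cells and less RNA in each of them cannot be told apart.

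Several of these receptors work in pairs and in opposite directions. CD94, encoded by *Klrd1*, forms a heterodimer with NKG2A, the inhibitory receptor encoded by *Klrc1*, or with NKG2C, the activating receptor encoded by *Klrc2*, and both bind the non-classical MHC class I molecule Qa-1 (*H2-T23*). NKG2D, encoded by *Klrk1*, is an activating receptor for stress-induced ligands that signals through DAP10 (*Hcst*), and it costimulates CD8+ T cells. *Klrg1* encodes an inhibitory receptor for cadherins that marks effector CD8+ T cells, *Klrb1c* encodes NK1.1, *Klre1* encodes a further lectin-like receptor of this cluster, and *Klra6* and *Klra7* encode the Ly49F and Ly49G receptors for MHC class I.

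All 9 genes lie on chromosome 6 of the GRCm38 build, where GENCODE M21 annotates each as protein coding. *Klre1* (129577905 to 129585827), *Klrd1* (129591782 to 129598775), *Klrk1* (129610323 to 129623864), *Klrc2* (129647496 to 129660689) and *Klrc1* (129666015 to 129678973) lay within 0.101 Mb. *Klrb1c* (128778485 to 128789215), *Klra6* (130013033 to 130026954) and *Klra7* (130218605 to 130233322) widened the stretch to 1.45 Mb. *Klrg1* (122270596 to 122282882) was 6.50 Mb away from it. Close relatives can share reads: 36.6% of the 50-base windows of *Klrc1* transcripts were also found in *Klrc2* transcripts, and 12.4% of those of *Klrc2* in *Klrc1*. For *Klrb1c* 17.0%, for *Klra7* 12.3% and for *Klra6* 2.62% of windows were found in another gene. Counts of these genes, of *Klrc1* and of *Klrc2* are therefore uncertain, by an amount that these shares do not measure. *Klrk1*, *Klrd1* and *Klrg1* shared no window and *Klre1* shared 0.280%. The build is the C57BL/6 genome, and Ly49 gene content is known to differ between inbred mouse strains. Its part in the *Klra6* and *Klra7* counts was not tested.

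The question set by the design was how the cells differed with disease stage within spleen and between the kidney and spleen at the same age. *Klrk1* and *Klrc1* were higher in 28W spleen than in 12W spleen and higher again in kidney, *Klrd1* was highest in 12W spleen, *Klrg1* was highest in kidney and *Klra6* was lowest there. A gene was called past 2-fold where its log2 ratio of CPM + 1 between libraries was at least 1 in size and it reached 5 CPM in either library. This scale understates the change of genes with low levels.

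**Figure D1:**
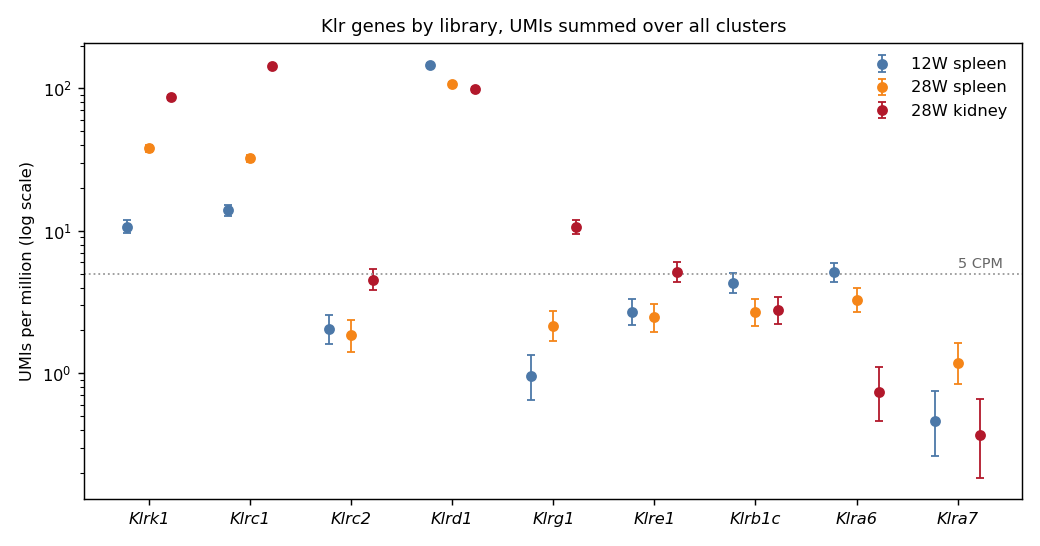
Level of each of the 9 Klr genes in the 3 libraries, in CPM on a log axis, with all clusters of a library summed. Points are single libraries and bars are exact 95% Poisson intervals of the counting error. *Klrk1* and *Klrc1* climb from 12W spleen to 28W spleen to 28W kidney, while *Klrd1* lies between 98.3 and 146 CPM and *Klra6* falls to 0.735 CPM in kidney.

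By age, 28W spleen against 12W spleen, 4 of the 9 genes reached 5 CPM, and 2 of them were past 2-fold higher and 0 past 2-fold lower. Over all 8919 genes tested, 1.85% were past 2-fold higher and 0.953% lower. *Klrk1* went from 10.7 CPM (9.62 to 11.8) in 12W spleen to 38.1 CPM (36.0 to 40.3) in 28W spleen, a ratio of 3.57 (3.17 to 4.02). *Klrc1* was at 14.0 CPM (12.7 to 15.3) and 32.2 CPM (30.3 to 34.3), a ratio of 2.31 (2.07 to 2.58). In both cases the 2 intervals stood well apart. The log2 ratio of *Klrc1* was 1.15, and it dropped under 1 to 0.79 without cluster 2 of 28W spleen, to 0.993 without cluster 4 of 12W spleen and to 0.996 without cluster 7 of 12W spleen. It was 0.96 when the deposited cluster means were averaged over cells.

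*Klrd1*, the shared partner chain, went the other way. It went from 146 CPM (142 to 150) in 12W spleen to 107 CPM (103 to 111) in 28W spleen, a ratio of 0.734 (0.702 to 0.766), which is under 2-fold. *Klra6* was at 5.12 CPM (4.40 to 5.93) and 3.28 CPM (2.68 to 3.97), also under 2-fold with a ratio of 0.640 (0.498 to 0.819). The other 5 genes were under 5 CPM in both spleens. Among them *Klrg1* was at 0.9499 CPM (0.654 to 1.33) and 2.15 CPM (1.68 to 2.73), and *Klrb1c* at 4.32 CPM (3.65 to 5.07) and 2.69 CPM (2.15 to 3.32). *Klrc2* (2.04 and 1.84 CPM) and *Klre1* (2.71 and 2.47 CPM) had overlapping intervals in the spleens. *Klra7* rested on 16 and 38 UMIs. The median log2 ratio of all 9 genes, taken without the 5 CPM filter, was -0.10, that of *Klre1*. Over all genes tested, which passed the filter, it was also -0.10, but the 2 sets are unlike. The 4 Klr genes that passed it had log2 ratios of 1.74 (*Klrk1*), 1.15 (*Klrc1*), -0.44 (*Klrd1*) and -0.52 (*Klra6*).

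By organ, 28W kidney against 28W spleen, 5 of the 9 genes reached 5 CPM, and 3 were past 2-fold higher and 0 past 2-fold lower. Over all 9274 genes tested, 6.41% were past 2-fold higher and 1.43% lower. *Klrc1* was at 143 CPM (138 to 147) in kidney against 32.2 CPM in 28W spleen, a ratio of 4.43 (4.14 to 4.75). *Klrk1* was at 86.8 CPM (83.5 to 90.2) against 38.1 CPM, a ratio of 2.28 (2.13 to 2.44). *Klrg1* was at 10.6 CPM (9.46 to 11.8) against 2.15 CPM, a ratio of 4.91 (3.78 to 6.47). All 3 were therefore higher in kidney by more than their counting error. The log2 ratio of *Klrg1* was 1.88, and it was 0.76 with a pseudocount of 10 CPM. The log2 ratio of *Klrk1* was 1.17, and it was 0.97 without cluster 6 and 0.9996 without cluster 3 of 28W spleen.

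*Klrd1* was at 98.3 CPM (94.8 to 102) in kidney against 107 CPM in 28W spleen, a ratio of 0.919 (0.875 to 0.966). Its log2 ratio of -0.12 became 0.051 without the clusters marked by B cells, myeloid cells, tubule or red cells. *Klre1* was at 5.14 CPM (4.36 to 6.02) against 2.47 CPM, a ratio of 2.09 (1.58 to 2.77) whose log2 value after the pseudocount, 0.83, was under the threshold. *Klrc2* was at 4.54 CPM (3.81 to 5.37) against 1.84 CPM, a ratio of 2.47 (1.80 to 3.41), and did not reach 5 CPM. *Klrb1c* was at 2.77 CPM (2.21 to 3.44) against 2.69 CPM, with overlapping intervals. *Klra6* was at 0.735 CPM (0.461 to 1.11) against 3.28 CPM, 4.46 times lower (2.80 to 7.42), and its log2 ratio of -1.30 was not counted because neither library reached 5 CPM. *Klra7* rested on 11 UMIs in kidney. The median log2 ratio of all 9 genes, taken without the 5 CPM filter, was 0.83, that of *Klre1*. It stands beside 0.078 over all genes tested, which passed the filter, so the 2 sets are unlike. The comparisons by age and by organ share the 28W spleen library.

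The same differences can be read as UMIs per cell. *Klrc1* gave 7.04 UMIs per 100 cells at 12W, 15.9 in the 28W spleen library and 59.9 in the kidney library. *Klrk1* gave 5.38, 18.8 and 36.4 UMIs per 100 cells, and *Klrd1* gave 73.4, 52.8 and 41.2. Mean depth per cell differed between clusters from 928 to 14345 UMIs, so these figures also carry depth, and CPM was used for all comparisons.

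**Figure D2:**
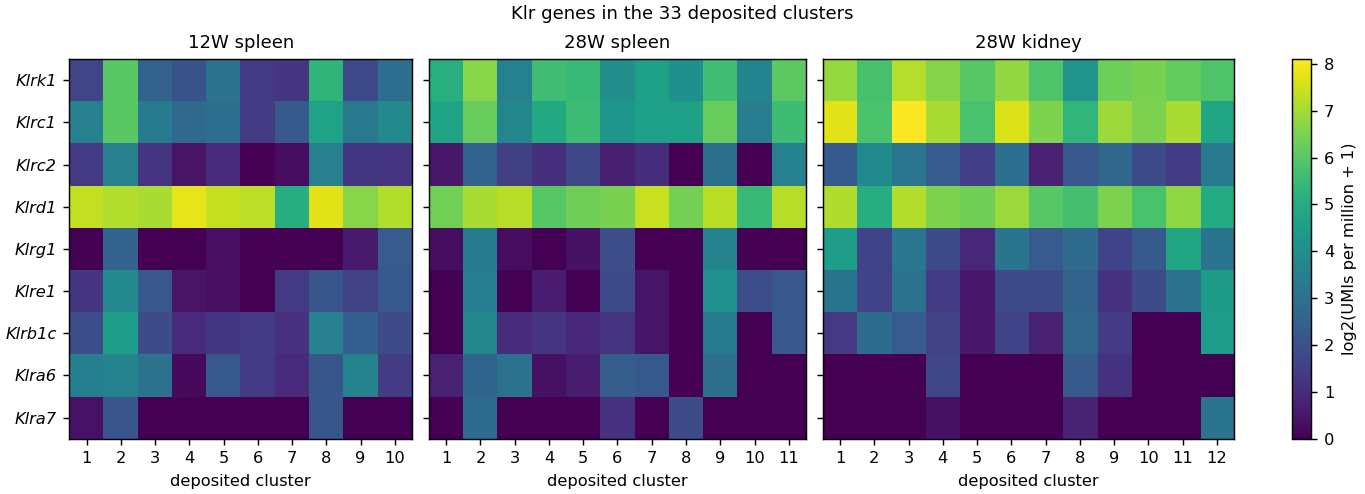
Level of the 9 Klr genes in each deposited cluster, as log2(CPM + 1), with 1 panel per library and clusters in order of their number, which is not matched across panels. Cluster 2 of 12W spleen is the brightest column for *Klrk1* and *Klrc1* in that library, the kidney panel is bright for both in most columns, and *Klra6* is at 0 in 9 of 12 kidney clusters.

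Across clusters, *Klrk1* was narrow in 12W spleen and broad in kidney. In 12W spleen it was highest in cluster 2, at 64.8 CPM (57.0 to 73.3), and the cluster held 67.7% of its UMIs with 11.2% of the UMIs of the library. Cluster 8 of that library followed at 38.6 CPM on 11 UMIs, with an interval (19.3 to 69.1) that overlapped cluster 2, and the other 8 clusters lay between 1.40 and 7.14 CPM. In 28W spleen the lowest cluster, cluster 3, was at 10.8 CPM, above those 8 clusters of 12W spleen, the median cluster was at 33.1 CPM, and cluster 2 was highest at 101 CPM (92.3 to 111). In kidney the range ran from 17.8 CPM (13.2 to 23.5) in cluster 8 to 146 CPM (134 to 159) in cluster 3, with a median of 75.6 CPM. All 11 clusters of 28W spleen and 11 of the 12 clusters of kidney were above the median cluster of the library they were compared with. The kidney clusters include the tubule-marked cluster 7 (58.0 CPM) and the myeloid-marked cluster 12 (57.8 CPM). Summed kidney tubule genes were at 5.13 CPM in kidney cluster 11 and higher in every other kidney cluster, against 0.406 CPM in 28W spleen. The part of RNA from other cells in the breadth of *Klrk1* and of the other Klr genes in kidney was not tested.

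*Klrc1* followed the same order. Its highest cluster in 12W spleen was again cluster 2, at 64.0 CPM (56.3 to 72.5), apart from the next cluster, and the lowest was cluster 6 at 1.61 CPM (0.332 to 4.70). In 28W spleen it was highest in cluster 2 at 74.2 CPM (66.6 to 82.3) and in cluster 9 at 73.3 CPM (50.1 to 103), which were not apart, and lowest in cluster 10 at 10.1 CPM. In kidney, cluster 3 was at 263 CPM (247 to 280), cluster 1 at 214 CPM (201 to 227) and cluster 6 at 204 CPM (185 to 226), of which cluster 3 stood clear of the other two and all 3 stood clear of the next cluster at 135 CPM (123 to 147). Of the 12 kidney clusters 8 were above every cluster of 28W spleen. The lowest kidney cluster for *Klrc1* was cluster 12, at 27.0 CPM (17.9 to 39.0), which was led by myeloid markers (*Lyz2* at 3170 CPM and *C1qa* at 2293 CPM, against 115 and 81.7 CPM in the whole library).

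A gene was called concentrated where its highest cluster was at least 3 times its level in the library. In 12W spleen this held for 2 of the 4 Klr genes with at least 5 CPM, *Klrk1* (6.06 times) and *Klrc1* (4.58 times), beside 31.1% of all genes with at least 5 CPM. In 28W spleen it held for 0 of 3, beside 22.5%, with *Klrk1* at 2.66 times and *Klrc1* at 2.30 times. In kidney it held for 1 of 5, beside 14.8%, and this was *Klre1* (3.93 times) with *Klrk1* at 1.69 times and *Klrc1* at 1.84 times. With 3 to 5 Klr genes in each library, these counts are too small to be set apart from the share of all genes.

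Cluster 2 of 12W spleen held the highest level of 7 of the 9 genes, beside 7.23% of all genes with a UMI in that library, and cluster 2 of 28W spleen that of 4, beside 3.76%. Among genes with at least 5 CPM the counts were 3 of 4 Klr genes beside 4.13% of all genes, and 2 of 3 beside 2.03%. In 12W spleen the intervals of *Klrk1*, *Klrc2*, *Klrg1*, *Klrb1c* and *Klra6* in cluster 2 overlapped those of the next cluster. In 28W spleen this held for all 4 genes that were highest in cluster 2. Both of these clusters had high *Ccl5*, a chemokine of effector T cells, at 8055 CPM in 12W spleen (1327 CPM in the library) and 12040 CPM in 28W spleen (3990 CPM in the library). Both also carried *Ncr1*, which encodes the NK receptor NKp46, at 25.3 and 18.8 CPM, against 3.25 and 3.15 CPM in the libraries. The summed level of the 8 NK cell markers was 196 and 189 CPM there against 126 and 131 CPM in the libraries, with *Itga2* at 2.58 and 1.48 CPM, while *Cd3e* stayed at 1241 and 1302 CPM. *Eomes*, which is among these markers, was at 41.5 and 75.9 CPM there against 79.2 and 72.9 CPM in the libraries. Their summed level was higher in cluster 3 of 12W spleen (283 CPM) and in clusters 8, 9 and 10 of 28W spleen (404, 199 and 1227 CPM). The part of NK cells in these levels was not tested. With cluster 2 taken out of both spleens, a choice made after the values were seen, the log2 ratio by age was 2.52 for *Klrk1* and 1.58 for *Klrc1*. Cluster 2 held 67.7% of *Klrk1* and 51.1% of *Klrc1* UMIs in 12W spleen, against 39.3% and 34.1% in 28W spleen. Leaving it out therefore raised both ratios by construction and is no check on them. In the remaining clusters the log2 ratio of *Klrd1* by age was -0.51.

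**Figure D3:**
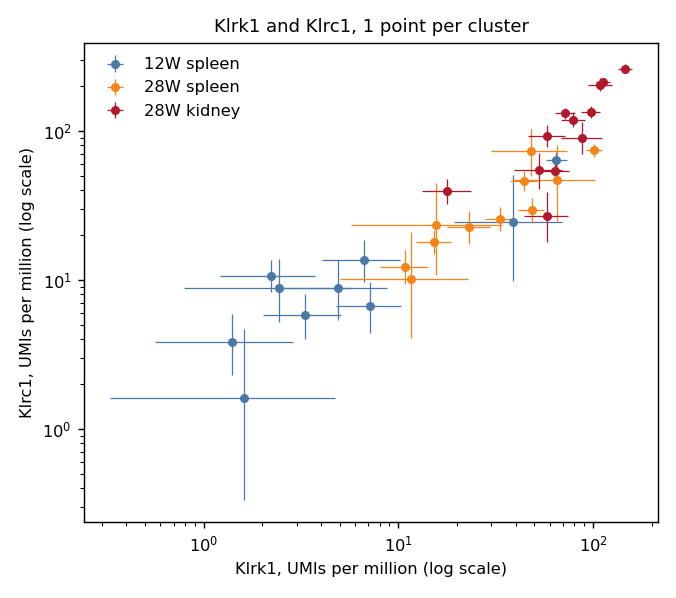
*Klrk1* against *Klrc1* in CPM on log axes, 1 point per deposited cluster in the colour of its library, with exact 95% Poisson intervals on both axes. The points rise together from most 12W spleen clusters at the lower left to kidney cluster 3 at 146 and 263 CPM, and cluster 2 of 12W spleen lies among the clusters of 28W spleen and kidney.

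*Klrk1* and *Klrc1* moved together over the 33 clusters. With log2(CPM + 1) centred on the mean of each library, Pearson r was 0.85 and Spearman rho 0.85, and r was 0.87 over the 25 clusters left without those marked by B cells, myeloid cells, tubule or red cells (the last added kidney clusters 2 and 11). Points of 1 library share its depth and its clustering, so r is a description. *Klrk1* with *Klrd1* gave an r of 0.41 and *Klrc1* with *Klrd1* an r of 0.54. *Klrc2* was closest to *Klrb1c* (0.83), and *Klrg1* to *Klre1* (0.77), all of them genes with few UMIs. *Klra6* gave an r of 0.056 with *Klrk1* and 0.22 with *Klrc1*, and its highest was 0.44 with *Klrb1c*.

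*Klrk1*, *Klrc1* and *Klrc2* lie in the 0.101 Mb stretch given above, and the first pair moved together, so the bases before these start sites are shown. RefSeq windows on GRCm38.p6 were found for 7 of the 9 genes and for neither *Klrd1* nor *Klrg1*. The 250 bases before each start site were searched on both strands for TGTGGT, the core of the RUNX motif, and for GGTGTG, the core of the T-box motif that T-bet and Eomes share. Matches are in capitals, and ACCACA is TGTGGT read from the other strand.
Klrk1, chr6:129623865-129624114, minus strand: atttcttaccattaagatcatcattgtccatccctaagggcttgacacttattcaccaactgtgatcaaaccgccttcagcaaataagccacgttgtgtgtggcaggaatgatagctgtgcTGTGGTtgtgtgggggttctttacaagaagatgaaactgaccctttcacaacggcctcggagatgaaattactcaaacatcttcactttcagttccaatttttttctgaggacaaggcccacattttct
Klrc1, chr6:129678974-129679223, minus strand: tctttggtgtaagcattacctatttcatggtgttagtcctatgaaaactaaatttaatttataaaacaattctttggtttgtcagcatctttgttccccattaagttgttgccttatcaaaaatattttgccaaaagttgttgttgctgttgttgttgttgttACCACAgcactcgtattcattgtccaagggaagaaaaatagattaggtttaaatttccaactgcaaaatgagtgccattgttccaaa
Klrc2, chr6:129660597-129660846, minus strand: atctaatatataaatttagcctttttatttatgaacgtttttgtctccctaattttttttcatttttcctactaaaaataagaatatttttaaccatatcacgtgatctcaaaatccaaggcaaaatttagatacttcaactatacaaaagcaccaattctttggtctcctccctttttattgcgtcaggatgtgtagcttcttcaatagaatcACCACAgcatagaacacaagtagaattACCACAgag
The RUNX letters stood 129 bases before the start site of *Klrk1*, 87 before that of *Klrc1*, and 36 and 9 before the *Klrc2* start site shown, the first of 2 in RefSeq. They were found in 6 of the 10 windows of the Klr genes (5 of 7 genes), beside 14.0% of 32851 windows of all genes. That 14.0% is a share of windows and not of genes. The 2 windows of *Klrc2* overlap and hold the same matches, so these are counted in both. The windows of *Klra6* and *Klra7* held no such match, and the T-box letters were in 0 of 10 windows, beside 16.3% of all windows. The letters TGTG are common to both motifs, and a match is a description of the sequence and not of a bound site.

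By the rule of highest Pearson r over the 33 clusters among 7731 genes, the genes most like *Klrk1* were *Cxcr3*, a chemokine receptor of effector T cells (0.92), *Itgb1*, the integrin chain CD29 (0.86), and *Il18rap*, a chain of the interleukin-18 receptor (0.86). Those most like *Klrc1* were *Gzmk*, which encodes a granzyme (0.90), *Cxcr3* (0.87) and *Fasl*, the death ligand (0.86). Those most like *Klrd1* were *Ifi27* (0.87), *Saraf* (0.86) and *Skap1*, a T cell adaptor (0.85). These choices depended on the measure. By Spearman rho, without centring, and without marked clusters, 0 of the 3 genes for *Klrd1* stayed among the nearest 3 in any case, and for *Klrk1* *Itgb1* left them in all cases and *Il18rap* in the first pair. For *Klrc1*, *Cxcr3* fell to rank 11 without marked clusters and to rank 4 without centring, and *Fasl* to rank 4 by Spearman rho and without marked clusters. *Cxcr3* for *Klrk1* and *Gzmk* for *Klrc1* stayed among the nearest 3 under all of these. Among the transcription factors, *Runx3* gave an r of 0.68 with *Klrk1* and 0.63 with *Klrc1*, and *Tbx21*, which encodes T-bet, gave 0.68 and 0.72. *Eomes* gave 0.036 and 0.25, and *Nfil3* gave -0.40 with both.

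*Klrd1* was broad in every library. In 12W spleen it ran from 31.9 CPM (27.1 to 37.2) in cluster 7, apart from all other clusters, to 224 CPM (212 to 236) in cluster 4, where *Klrk1* was at 3.30 CPM and *Klrc1* at 5.78 CPM. In 28W spleen it ran from 43.4 CPM (29.3 to 61.9) in cluster 10 to 170 CPM (155 to 186) in cluster 7. Kidney ranged from 30.8 CPM (21.1 to 43.5) in cluster 12 to 143 CPM (131 to 155) in cluster 3, the cluster that was also highest for *Klrk1* and *Klrc1*. Of the 11 neighbouring pairs in the kidney order of *Klrd1*, 11 had overlapping intervals.

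Because *Klrc1* and *Klrd1* encode the chains of 1 receptor, their UMIs can be set against each other within a cluster, free of the scaling between libraries. *Klrc1* made up 8.75% of *Klrc1* and *Klrd1* UMIs in 12W spleen (exact 95% binomial interval 8.01 to 9.52), 23.2% in 28W spleen (21.9 to 24.4) and 59.2% in 28W kidney (58.1 to 60.4). A share of UMIs of genes of different length is not a share of molecules on the cell, so only its change between clusters is read. In 12W spleen the share was 30.8% (27.6 to 34.1) in cluster 2 and 1.02% to 10.7% in the other clusters. In 28W spleen it ran from 7.61% (5.85 to 9.71) in cluster 3 to 36.5% (32.1 to 41.2) in cluster 5. In kidney the lowest cluster, cluster 5, was at 40.1% (34.4 to 45.9) and the highest, cluster 3, at 64.8% (62.3 to 67.2), so the kidney range lay above the ranges of both spleens. The interval of kidney cluster 5 overlapped those of several clusters of 28W spleen, clusters 2 and 5 among them.

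**Figure D4:**
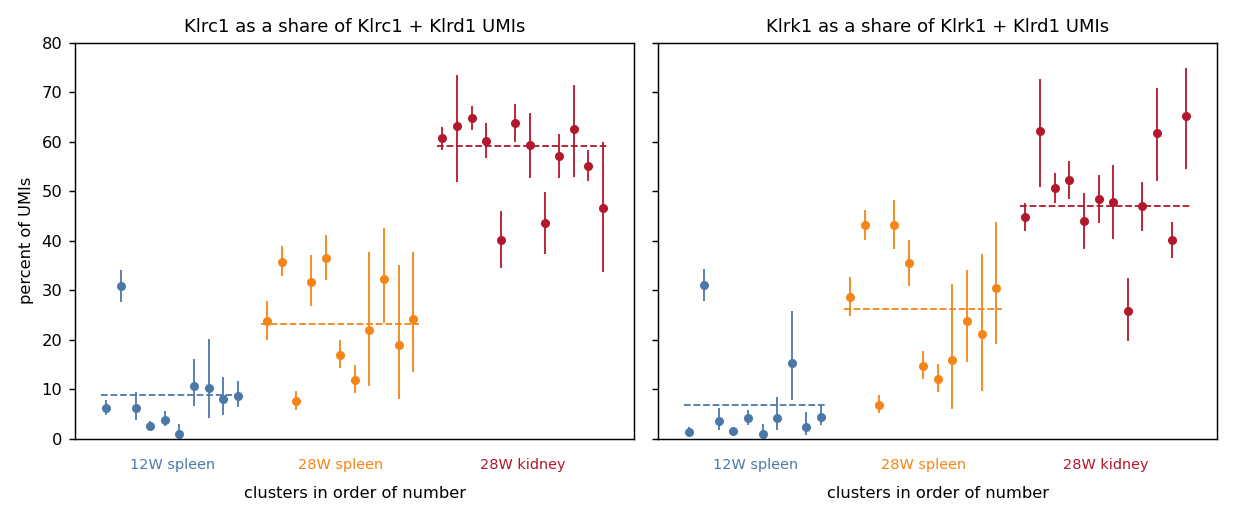
Share of *Klrc1* in *Klrc1* and *Klrd1* UMIs (left) and of *Klrk1* in *Klrk1* and *Klrd1* UMIs (right), in percent, for each cluster in order of its number. Bars are exact 95% binomial intervals and dashed lines are the whole libraries. On the left all 12 kidney points, marked clusters 7, 8 and 12 included, lie between 40.1% and 64.8%, above every spleen point. Cluster 2 of 12W spleen stands at 30.8% above the rest of its library.

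The share of *Klrk1* in *Klrk1* and *Klrd1* UMIs was 6.83% in 12W spleen (6.17 to 7.53), 26.3% in 28W spleen (25.0 to 27.6) and 46.9% in 28W kidney (45.6 to 48.2). Its cluster ranges overlapped between 28W spleen (6.77% to 43.2%) and kidney (25.8% to 65.2%). *Klrc2*, the activating alternative to *Klrc1*, made up 12.8% of *Klrc1* and *Klrc2* UMIs in 12W spleen (10.1 to 15.8), 5.41% in 28W spleen (4.14 to 6.92) and 3.08% in kidney (2.59 to 3.64). In kidney the share was highest in cluster 12, at 24.3% of 37 UMIs (11.8 to 41.2), and in cluster 2, at 19.7% of 66 UMIs (10.9 to 31.3), against 0.725% to 8.26% in the other 10 clusters. These 2 clusters carried markers of myeloid cells and of red cells, and their part in the share was not tested.

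Most *Klrg1* UMIs of the spleens came from few clusters. In 12W spleen 31 of its 33 UMIs came from cluster 2 (19 UMIs, 4.90 CPM) and cluster 10 (12 UMIs, 3.98 CPM), and 6 of 10 clusters had no UMI. In 28W spleen cluster 2 was at 9.06 CPM (6.56 to 12.2) on 43 of 69 UMIs, cluster 6 at 2.79 CPM (1.65 to 4.41) on 18, cluster 9 at 11.4 CPM on 5 (3.72 to 26.7), and the other 8 clusters were at 0.284 CPM or less. Some clusters with 0 UMIs were too shallow to show absence. Their intervals reached 13.0 CPM in cluster 8 of 12W spleen, and 9.62 and 13.3 CPM in clusters 8 and 11 of 28W spleen. These overlapped the interval of cluster 2 in the same library. In kidney all 12 clusters held *Klrg1*, the marked clusters 7, 8 and 12 among them. The highest were cluster 11 at 26.9 CPM (22.1 to 32.4) and cluster 1 at 21.5 CPM (17.7 to 25.95). These were not apart from each other and stood clear of the next cluster at 8.05 CPM (5.43 to 11.5). Clusters 10 of 12W spleen, 6 of 28W spleen and 11 of kidney were those with the highest summed level of the 4 cycling markers, at 3090, 1340 and 3746 CPM, so *Klrg1* was present in the cycling cluster of each library. Kidney cluster 1 was high in *Gzmb* (696 CPM) and *Gzmk* (873 CPM), which encode granzymes.

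**Figure D5:**
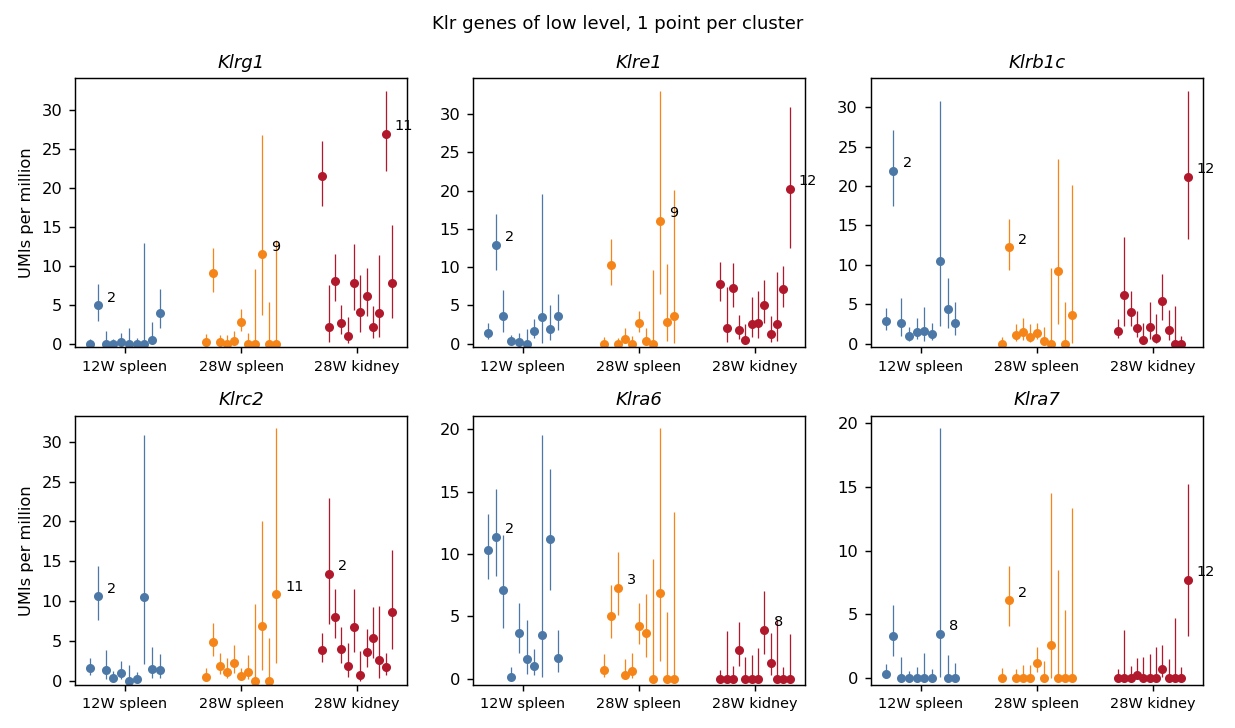
Level of the 6 Klr genes of low level in CPM, 1 point per deposited cluster in order of number within each library, with exact 95% Poisson intervals. The number beside a point is the highest cluster of that library. *Klrg1* is raised in kidney clusters 1 and 11, *Klre1*, *Klrb1c* and *Klra7* are highest in kidney cluster 12, and the widest intervals belong to clusters with few UMIs.

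*Klre1*, *Klrb1c* and *Klra7* were highest in the myeloid-marked kidney cluster 12, at 20.2 CPM (12.5 to 30.9), 21.2 CPM (13.3 to 32.1) and 7.70 CPM (3.33 to 15.2). The interval of *Klrb1c* overlapped that of kidney cluster 2 (2.28 to 13.5 CPM on 6 UMIs). Those highest in cluster 12 were 3 of the 9 genes, beside 17.7% of all genes with a UMI in kidney. Among genes with at least 5 CPM it was 1 of 5 Klr genes, *Klre1*, beside 11.4%. That cluster also held *Ncr1* at 67.4 CPM, and the summed NK cell markers were at 4606 CPM, most of it *Fcer1g* (2478 CPM) and *Tyrobp* (1971 CPM), which myeloid cells also express, with *Itga2* at 0. Its *Cd3e* was at 358 CPM against 1306 CPM in the library. The part of NK or myeloid cells in these levels was not tested. *Klrb1c* in kidney was at 2.77 CPM and its log2 ratio by organ was 0.034, which became -0.24 without cluster 12. In the spleens *Klrb1c* was highest in cluster 2, at 21.9 CPM (17.5 to 27.1) in 12W spleen and 12.2 CPM (9.28 to 15.8) in 28W spleen, holding 56.7% and 67.4% of its UMIs. *Klre1* had 50 of 94 UMIs in cluster 2 of 12W spleen and 49 of 79 in cluster 2 of 28W spleen. *Klra7* had 13 of 16 and 29 of 38 UMIs there. *Klrc2* was highest in cluster 2 of 12W spleen at 10.6 CPM (7.59 to 14.4) on 41 of 71 UMIs.

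*Klra6* did not follow *Klrk1* and *Klrc1*. In 12W spleen it was similar in cluster 2 at 11.4 CPM (8.25 to 15.2), cluster 9 at 11.2 CPM (7.11 to 16.8) and cluster 1 at 10.3 CPM (7.97 to 13.2), and low in cluster 4 at 0.165 CPM on 1 UMI. Clusters 1 and 9 were at 2.22 and 2.44 CPM of *Klrk1*, so the 2 genes parted there. In 28W spleen *Klra6* was highest in cluster 3 at 7.28 CPM (5.07 to 10.1), the cluster that was lowest for *Klrk1*. Its interval there overlapped those of cluster 9 (1.42 to 20.1) and of cluster 2 (3.24 to 7.53), the cluster highest for *Klrk1*. Which of these clusters was highest for *Klra6* is therefore not settled. *Ikzf2*, which encodes Helios, a factor of Ly49+ regulatory CD8+ T cells, was at 221 CPM in cluster 1 and 162 CPM in cluster 9 of 12W spleen and 135 CPM in cluster 3 of 28W spleen, against 109 and 50.2 CPM in the libraries. In cluster 2 of 12W spleen, where *Klra6* was also high, *Ikzf2* was at 38.7 CPM, so the 2 genes did not follow each other throughout. *Ikzf2* was highest in cluster 8 of 12W spleen (797 CPM) and cluster 11 of 28W spleen (339 CPM). *Klra6* had 1 and 0 UMIs there, with intervals of 0.0889 to 19.6 and 0 to 13.3 CPM. These intervals are too wide to show whether the 2 genes parted in those clusters. In kidney *Klra6* had 22 UMIs, of which 11 were in cluster 8, 8 in cluster 4 and 3 in cluster 9, and 0 in the other 9 clusters. The intervals at 0 UMIs reached up to 0.722 CPM in cluster 1 and 0.990 CPM in cluster 3, the kidney clusters highest in *Klrc1*. Kidney cluster 8 carried B cell markers, at 2675 CPM summed against 431 CPM in the library, and their part in its *Klra6* level was not tested.

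The adaptors, ligands and neighbouring programs of these receptors gave context. By organ, 3 of 11 adaptor and signalling genes with at least 5 CPM were past 2-fold higher and 0 lower. Without the myeloid-marked kidney cluster 12, left out after the values were seen, 0 were higher and 1 was lower. The highest log2 ratios were those of *Fcer1g* (2.03, and -0.53 without that cluster) and *Tyrobp* (1.54, and -1.18 without it), and the lowest those of *Zap70* (0.032) and *Vav1* (0.088), kinase and exchange factor of T cell signalling. *Hcst*, the adaptor of NKG2D, was at 648 CPM in kidney against 459 CPM in 28W spleen (0.50). Of the ligands, 0 of 6 were past 2-fold. *Ulbp1* (0.61) and *Clec2i* (0.29) were highest, *Clec2d* (-0.33) and *H2-T23*, the Qa-1 gene (0.081), lowest. Of other NK receptors, 2 of 10 were higher, *Fcgr3* (1.83, and -0.41 without kidney cluster 12) and *Tigit* (1.53, and 1.56 without it), and 1 was lower, *Slamf6* (-1.05), followed by *Crtam* (-0.93).

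The effector list had 5 of 8 genes past 2-fold higher by organ and 0 lower, with *Gzmb* (3.27) and *Prdm1* (2.17) highest and *Prf1* (0.69) and *Tbx21* (0.95) lowest. Without kidney cluster 12, 4 of 7 were higher. The gene lost was *Cx3cr1*, with 217 of its 307 kidney UMIs in that cluster and a level of 3.11 CPM without it. The naive and memory list had 0 higher and 6 of 7 lower, with *Lef1* at -1.91 and *Bcl2* (-0.70) and *Id3* (-1.02) highest. Of the genes of Ly49+ regulatory CD8+ T cells, 1 of 4 was higher, *Fasl* (2.08), and 1 lower, *Ikzf2* (-1.21), with *Il2rb* at -0.035 and *Cxcr5* at -0.66. Of the transcription factors 3 of 8 were higher and 0 lower, with *Prdm1* and *Id2* (1.81) highest and *Bach2* (-0.95) and *Tox* (0.064) lowest. These counts stand beside the 6.41% and 1.43% of all genes given above.

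By age the same lists were counted, beside 1.85% of all genes past 2-fold higher and 0.953% lower. Adaptors had 0 of 10 genes past 2-fold, from *Tyrobp* (0.77) and *Hcst* (0.49) down to *Zap70* (-0.32) and *Ptpn6*, the phosphatase SHP-1 (-0.53). Ligands had 0 of 5, from *H2-T23* (0.39) and *H2-K1* (0.24) to *Clec2d* (-0.12) and *Clec2i* (-0.19). Other NK receptors had 0 higher and 1 of 7 lower, *Cd160* (-1.08), with *Cd96* at -0.39 and *Tigit* (0.61) and *Slamf6* (0.21) highest. The regulatory genes had *Fasl* past 2-fold higher (1.15) and *Ikzf2* lower (-1.10) of 4, with *Il2rb* at 0.16 and *Cxcr5* at 0.076. The effector list had 1 of 6 higher, *Gzmb* (1.58), then *Tbx21* (0.93), with *Id2* (-0.13) and *Prf1* (0.30) lowest. The naive and memory list had 1 of 7 lower, *Lef1* (-1.04), then *Id3* (-0.79), with *Il7r* (0.70) and *Tcf7* (-0.063) highest. Transcription factors had 0 of 7 past 2-fold, from *Tbx21* and *Nfil3* (0.76) to *Tox* (-0.20) and *Bach2* (-0.56).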

How the data were processed

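Per the labels, single-cell RNA was captured with 10x Genomics 5′ v2 reagents. The submitters' processing notes name Cell Ranger 2.1.1, R 3.6.1 and GRCm38, and the published methods give the vdj pipeline of Cell Ranger with the same build. The annotation release and the filters on cells are not given in the sources used here. For each group the authors deposited a cluster assignment per barcode and, per gene and cluster, a mean count, which is scaled so that a column sums to the median UMIs of a cell in that library (3853, 4128 and 3501). Columns with the authors' log2 fold changes and adjusted p-values between clusters were not used.

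Every column held whole multiples of 1 step, taken as 1 UMI, and division returned whole UMIs for 100% of values within 0.001. UMIs were summed over clusters and divided by the library total, since the authors normalized each table on its own, and levels across libraries rest on this scaling. A gene with no row in a library counted as 0. The log2 ratio used a pseudocount of 1 CPM, a filter of 5 CPM in either library and a threshold of 2-fold. With 1 library per group no test was made and no p-value is given. Intervals are exact Poisson or binomial intervals at 95%, and ratios of counts use the exact conditional binomial interval. Shares of a pair of genes were ranked over clusters with at least 20 UMIs of both. Cluster patterns were compared for genes with at least 10 CPM in at least 1 library, without receptor and immunoglobulin segments. Sequences are from RefSeq (GRCm38.p6) and gene positions from GENCODE M21. The scripts ran in Python with numpy, pandas and scipy and were tested on simulated data.

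The genes and lists were chosen with earlier results of these data known. Named were the 9 Klr genes, the 3 genes most like each one with at least 500 UMIs, and in each list the 2 highest and the 2 lowest log2 ratios among genes with at least 5 CPM, except 1 gene that is not reported here. Other genes were named as markers of a cluster after their values were seen. The alternatives tried were other scalings, averages over clusters, pseudocounts of 0.1 and 10 CPM, filters of 0 and 20 CPM, and fits without marked or single clusters. Doublets could not be assessed from cluster means.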

Additional observations from a re-analysis of the deposited data

How the results depend on the processing

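By age, the count of Klr genes past 2-fold was 2 as reported and 1 with the deposited cluster means averaged over cells and with a pseudocount of 10 CPM, where *Klrc1* had log2 ratios of 0.96 and 0.82. Leaving out 1 cluster at a time gave 1 to 2, with 1 without cluster 2 of 28W spleen and without cluster 4 or cluster 7 of 12W spleen. The median log2 ratio by age was -0.10 and ran from -0.39 without cluster 2 of 28W spleen to 0.53 without cluster 2 of 12W spleen. By organ, the count was 3 and stayed between 2 and 4 under every alternative run. It was 2 with a pseudocount of 10 CPM, where *Klrg1* lost its call at 0.76, and with a filter of 20 CPM, which *Klrg1* does not pass. The median log2 ratio by organ was 0.83, and it was 0.45 with cluster means averaged over cells, 0.28 with a pseudocount of 10 CPM and 0.60 without clusters marked by B cells, myeloid cells, tubule or red cells. It ran from 0.65 without cluster 3 of 28W spleen to 1.26 without cluster 2 of that library. The lower values with a larger pseudocount follow from its construction, and the cause of the others was not tested. No called log2 ratio of a single gene changed sign in any alternative. The median log2 ratio of genes with at least 50 CPM in both libraries was -0.099 by age and 0.078 by organ, and scaling by it removes this shift. Among genes that were not called, that of *Klrb1c* by age, -0.53, became 0.25 without cluster 2 of 12W spleen. No paired analysis was possible because each group was 1 pooled library. Depth limits *Klra7*, *Klrc2*, *Klrb1c*, *Klre1* and *Klra6*, which had 65 to 327 UMIs over the 3 libraries.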

Other observations

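The tables listed 16 further genes whose names start with Klr. None reached 5 CPM in any library, so none is named by the rule. Within kidney, 13 of the 16 were highest in the myeloid-marked cluster 12, beside 17.7% of all genes with a UMI in that library. Several rest on few UMIs, such as *Klra10* (4), *Klra8* (5) and *Klrg2* (5). These and the examples that follow were chosen after their values were seen. *Klra2* was at 69.3 CPM in that cluster and at 2.47 CPM in the whole kidney library, with 74 UMIs. *Klra4*, which encodes the activating Ly49D receptor, was at 29.9 CPM there and at 2.84 CPM in the library. *Klra17* was at 25.0 CPM there, and at 24.6 CPM in cluster 10 of 28W spleen, which carried B cell and myeloid markers. In 12W spleen 7 of the 16, and in 28W spleen 8 of the 16, were highest in cluster 2, beside 7.23% and 3.76% of all genes with a UMI. The 16 include genes without a UMI, *Klra2* and *Klra17* in 12W spleen and *Klrg2* in 28W spleen. Some of those highest in cluster 2 rest on few UMIs, such as *Klra10* with 2 in 12W spleen and 3 in 28W spleen.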
